A study of Mus musculus with 6 samples.

Results

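The loci of 5 GATA transcription factor genes (Gata2, Gata3, Gata4, Gata5 and Gata6) and of Hand2 were examined for trimethylation of lysine 27 on histone H3 (H3K27me3) in spermatogenic cells of control and Ezh2 mutant mice. The loci were chosen by gene name and by fixed intervals of the mm9 build. These were chromosome 6 from 88130001 to 88170000 (Gata2), chromosome 2 from 9765001 to 9825000 (Gata3), chromosome 14 from 63805001 to 63905000 (Gata4), chromosome 2 from 180045001 to 180085000 (Gata5), chromosome 18 from 11040001 to 11100000 (Gata6) and chromosome 8 from 59780001 to 59845000 (Hand2). The 6 intervals held 19 of the 54748 regions obtained by merging the MACS2 peaks of all libraries, and 17 of 36868 regions by the same merging of hiddenDomains bins. The calls were known when the intervals were drawn, so the presence of a domain in each of them is a description and not a finding.

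Chromatin was immunoprecipitated with an H3K27me3 antibody (ab6002) from spermatogenic cells of 6-week-old mice of mixed background and sequenced. Controls had the genotype MvhCre;Ezh2fl/+ (2 libraries) and mutants MvhCre;Ezh2fl/fl (2 libraries). Both genotypes thus carried the Cre, driven by the germ cell gene Mvh, and at least one floxed allele of Ezh2, and the controls also had an allele without loxP sites. The fraction was 90% spermatogenic per the labels, with germ cells of all stages together, and the 2 input samples were not analysed here. The labels do not tie the libraries to individual animals, so p-values measure only the spread between these libraries, which may be technical.

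H3K27me3 is deposited by Polycomb repressive complex 2 (PRC2), which works with either of a pair of methyltransferases, EZH2 or EZH1. The mark forms broad domains over CpG-rich genes of developmental regulators that a cell type keeps silent. GATA factors are zinc finger proteins that bind a short GATA-containing motif. Gata2 and Gata3 are best known from blood stem cells and T lymphocytes, and Gata4, Gata5 and Gata6 from heart and endoderm. In the testis, GATA4 and GATA6 are known from Sertoli and Leydig cells, the somatic partners of the germ cells. Hand2 encodes a basic helix-loop-helix factor of heart and limb development.

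Each library was represented by a list of MACS2 peaks and a list of enriched bins of 200 bp from hiddenDomains, a caller meant for broad marks. Either list gives where the mark was called and not how strong it was, and the read depth is unknown. The libraries had between 31863 and 42363 peaks covering 64.4 to 82.0 Mb, with mutant 1 highest. Bins spanned 53.4 and 54.3 Mb for the controls against 50.9 and 44.6 Mb for the mutants. No mm9 gene annotation was used here, so exons and start sites were not placed inside the intervals, and the purity was not checked at marker genes. In RefSeq order the nearest protein-coding genes are Rpn1 and Dnajb8 for Gata2, Celf2 and Taf3 for Gata3, Neil2 and Blk for Gata4, Rbbp8nl and Slco4a1 for Gata5, Mib1 and Rbbp8 for Gata6, and Fbxo8 and Scrg1 for Hand2.

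Promoter sequences of RefSeq (GRCm38.p6) were found for 4 of the 6 genes, with separate entries for 2 start sites of Gata2. Shown are the 250 bases before the start of Gata3, Gata5 and Hand2, 5′ to 3′ along each gene, with every CpG in capitals. Gata3 had the widest domain among the GATA genes, and Gata5 was the locus that varied most between libraries. Hand2 had the widest domain of the 6 loci as merged from MACS2 peaks, whereas by bins the widest region was that of Gata3 (32.6 kb). Gata3 and Gata5 lie on the minus strand and Hand2 on the plus strand, and where these bases fall in the mm9 calls was not determined.
Gata3: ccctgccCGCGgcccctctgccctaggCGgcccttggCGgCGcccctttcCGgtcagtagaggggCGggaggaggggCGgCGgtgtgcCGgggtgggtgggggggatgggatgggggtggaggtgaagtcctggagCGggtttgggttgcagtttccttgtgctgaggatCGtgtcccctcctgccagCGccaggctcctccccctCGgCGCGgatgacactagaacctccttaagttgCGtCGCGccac
Gata5: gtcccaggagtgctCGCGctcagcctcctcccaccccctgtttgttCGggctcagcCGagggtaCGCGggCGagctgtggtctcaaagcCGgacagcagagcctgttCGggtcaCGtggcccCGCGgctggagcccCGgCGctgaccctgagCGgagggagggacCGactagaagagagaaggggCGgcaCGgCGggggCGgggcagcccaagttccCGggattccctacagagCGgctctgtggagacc
Hand2: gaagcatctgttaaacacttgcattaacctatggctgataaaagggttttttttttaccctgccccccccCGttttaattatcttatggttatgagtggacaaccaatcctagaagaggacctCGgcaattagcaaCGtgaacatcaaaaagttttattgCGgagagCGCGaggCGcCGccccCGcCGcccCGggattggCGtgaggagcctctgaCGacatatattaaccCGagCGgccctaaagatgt
The Gata3 stretch held 19 CpG, the Gata5 stretch 22 and the Hand2 stretch 15, against a median of 6 over 32851 promoter entries of the same length. The stretches before the start sites of Gata2 held 22 and 24. Between 12.0% and 27.3% of all entries had at least as many CpG as these 5. Hand2 was the least CpG-rich of them, at a GC content of 49.2%, and the others lay between 67.2% and 74.0%. The motif GATAA, searched on both strands as GATAA and TTATC, occurred once on each strand in the Hand2 stretch and in none of the other 4. It is present in 22.6% of all entries.

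Each locus had a continuous core that all 8 lists called. At Hand2 the longest such stretch measured 18.0 kb (chromosome 8 from 59796801 to 59814800), and at Gata3 it measured 19.6 kb (chromosome 2 from 9793801 to 9813400). At Gata4 it was 13.3 kb and at Gata2 13.2 kb. At Gata6 it was 10.8 kb and at Gata5 5.80 kb. Of all called base pairs, the share called in every library was 78.3% for MACS2 over the 6 loci and 82.2% for hiddenDomains. Over the whole genome those shares were 40.2% and 54.0%. In the other regions at least as wide as the narrowest of the 6 domains they were 77.0% for MACS2 (408 regions) and 84.8% for hiddenDomains (440 regions). The loci were counted over their whole intervals, with the small regions beside the domains. The other wide regions were counted over their own width alone, so the shares are not compared like for like.

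**Figure D1:**
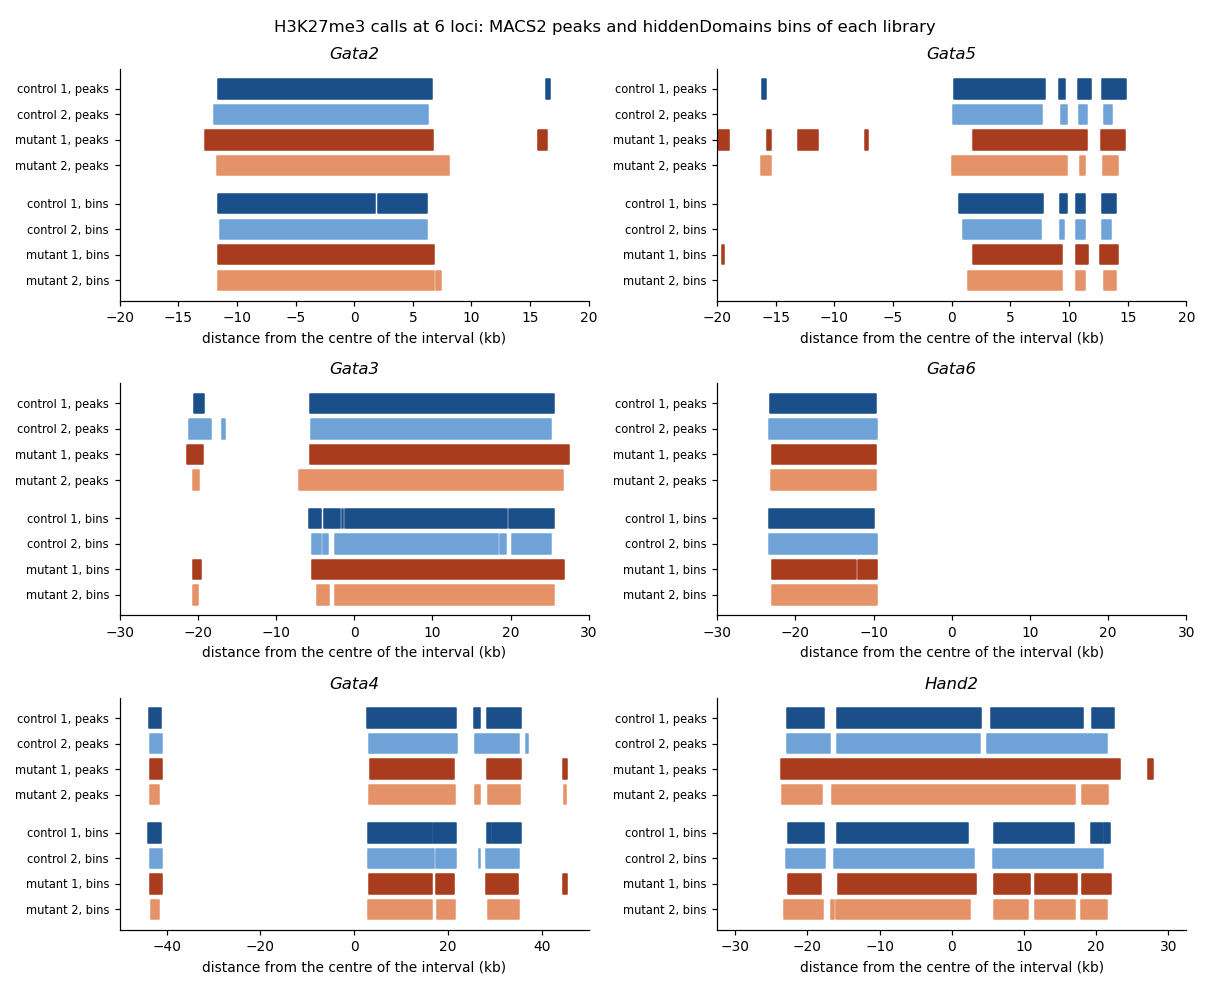
Called stretches at the 6 loci, with the distance from the centre of each interval (kb) on the x axis and 1 row per library and caller (peaks are MACS2, bins are hiddenDomains; controls blue, mutants red). Every list shows the main domain of each locus, Gata6 has 1 peak in each library, and the differences lie at edges, in short gaps and in small satellites.

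The domains differed in form. Gata6 had a single peak in each library, 13.5 and 13.8 kb wide for the controls and 13.3 and 13.5 kb for the mutants, and the nearest other peak of any library lay 66.6 kb away. Gata2 had 1 peak of 18.2 kb in both controls and of 19.4 and 19.9 kb in the mutants, plus a satellite of under 1 kb in control 1 and mutant 1 only. Gata3 combined a peak of between 30.8 and 33.8 kb with a smaller region 11.3 kb away that was called in all 4 libraries. Gata4 had 3 regions called in all 4 libraries, of 2.81, 19.2 and 10.008 kb, the first of which lay 43.7 kb from the second. Gata5 had a domain of 11.8 kb followed by one of 2.13 kb. Its 3 regions called in 1 library alone all came from mutant 1, and one of them crosses the start of the interval. The Hand2 domain was 46.9 kb wide as merged from all peaks, and it was a single peak only in mutant 1, against 4, 3 and 3 peaks in the other libraries.

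Ranked by width among the 54748 MACS2 regions, Hand2 stood at 5, Gata3 at 15, Gata2 at 110, Gata4 at 145, Gata6 at 283 and Gata5 at 414. These regions were merged from all libraries. The widest single Hand2 peak measured 19.96 and 19.75 kb for the controls against 46.9 and 33.6 kb for the mutants. At Gata3 these widths were 31.3 and 30.75 kb against 33.2 and 33.8 kb. Among the 36868 hiddenDomains regions, Gata3 stood at 10, Gata4 at 81, Gata2 at 84, Gata6 at 162 and Gata5 at 425. Bins split Hand2 into 3 regions, which stood at 67, 108 and 1381. Of the 19 MACS2 regions at the loci, 10 were called in all 4 libraries (36.4% of all regions were), 0 in the controls alone (4.90%) and 1 in both mutants alone (5.97%). Of the 17 hiddenDomains regions, 12 were called in all 4 libraries (43.4% of all regions), 0 in the controls alone (7.53%) and 1 in both mutants alone (2.80%).

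Gaps inside the main domain fell at recurring places. Every list of bins broke the Hand2 domain at 2 sites, and 0.8 kb of the first (chromosome 8 from 59795001 to 59795800) and 2.4 kb of the second (from 59815801 to 59818200) held no bin in any library. MACS2 also left a gap at both sites in either control, of 1.845 and 1.39 kb in control 1 and of 1.01 and 1.03 kb in control 2. In mutant 2 a peak ran across the second site, and in mutant 1 a single peak ran across both. At Gata5, 0.8 kb (chromosome 2 from 180074801 to 180075600) held no bin in any library, and MACS2 had a gap of 1.07 to 1.09 kb there in all libraries but mutant 1. MACS2 left no gap in the main domain of Gata2, Gata3, Gata4 or Gata6 in any library.

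The comparison of genotypes asked whether loss of Ezh2 changed how much of these loci was called. Over the 6 loci together, bins spanned 136.2 and 136.8 kb for the controls against 141 and 136.2 kb for the mutants, so the groups overlapped. Peaks spanned 147.1 and 148.8 kb for the controls against 159.6 and 151.5 kb for the mutants, with mutant 1 highest. That library also had the most peaks over the genome, and the part of this in the result was not tested. The control tracks of the callers are not stated, and a track that differed by genotype could not be told apart from the mutation. The mean difference was 2.10 kb (1.54%) with hiddenDomains and 7.59 kb (5.13%) with MACS2. Without mutant 1 these differences were -0.3 and 3.56 kb, and without mutant 2 they were 4.5 and 11.6 kb. Other wide domains, counted over their own width and not over an interval, differed by 0.145% with hiddenDomains and by 7.28% with MACS2. The 6 loci made up 0.255% and 0.252% of the bin-covered length of the controls and 0.277% and 0.305% of that of the mutants, whose total was smaller. For the length of the peaks these shares were 0.219% and 0.213% for the controls against 0.195% and 0.235% for the mutants, which fell on both sides of the controls.

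By covered length in bins, both mutants lay above both controls at 1 locus (Gata2) and below at 1 (Gata4). Of 2999 windows of 50 kb with a mean of at least 5 kb covered, 12.0% had both mutants above and 42.0% both below. With peaks, both mutants lay above at 4 loci (Gata2, Gata3, Gata5 and Hand2) and below at 1 (Gata4), where 30.2% and 27.1% of 4434 such windows did. The p-values for single loci are from two-sided exact permutation tests, which with 2 libraries against 2 cannot go under 0.333.

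**Figure D2:**
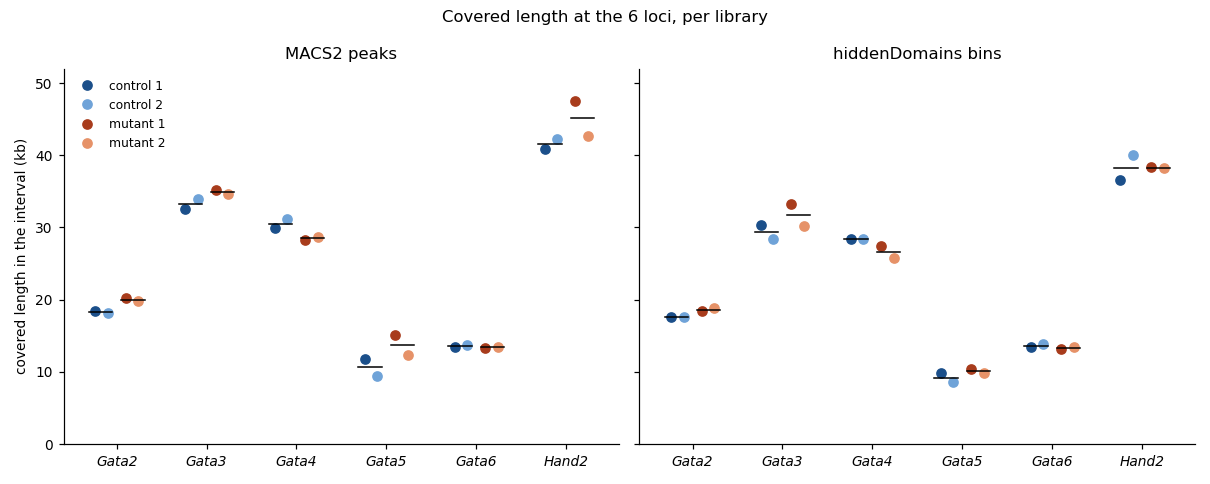
Covered length (kb) inside each interval for every library, with MACS2 peaks on the left and hiddenDomains bins on the right; points are libraries and black lines the means of 2. The mutants lie above the controls at Gata2 and below them at Gata4 in both panels, and Gata6 differs by at most 0.3 kb between the means.

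Gata2, a factor of blood stem cells, was covered over a slightly longer stretch in the mutants by both callers. Bins spanned 17.6 kb of the interval in either control, 18.4 kb in mutant 1 and 18.8 kb in mutant 2, a difference of 1.0 kb (exact permutation p = 0.333). Peaks spanned 18.5 and 18.2 kb for the controls against 20.2 and 19.9 kb for the mutants, a difference of 1.68 kb (exact permutation p = 0.333). The mutants were thus above the controls without overlap in both kinds of list. The added length lay mainly at the right edge of the domain by bins, and by peaks in mutant 2 only. Bins ended at 88156200 in either control, at 88156800 in mutant 1 and at 88157400 in mutant 2. Peaks ended at 88156616 (control 1), 88156276 (control 2), 88156711 (mutant 1) and 88158118 (mutant 2), so mutant 1 exceeded control 1 by less than the controls differed from each other. On the left the groups overlapped. The peak of mutant 1 reached 0.962 kb farther out than the control mean on that side, against 0.265 kb on the right. Every Gata2 bin of the mutants carried the highest display score of 1000, as did 87 of the 88 bins of either control.

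Gata3, which directs T helper cell and mammary luminal development, had a longer MACS2 peak in both mutants. Peaks spanned 32.6 and 34.0 kb of the interval for the controls against 35.1 and 34.6 kb for the mutants, a difference of 1.56 kb (exact permutation p = 0.333) that was 0.861 kb without control 1. Bins spanned 30.4 kb in control 1, 28.4 kb in control 2, 33.2 kb in mutant 1 and 30.2 kb in mutant 2, where the groups overlapped (exact permutation p = 0.667). Mutant 1 alone lay above both controls there. On the right, peaks ended at 9820596 and 9820233 for the controls and at 9822479 and 9821764 for the mutants, an extension of 1.71 kb on average. Bins ended at the same base, 9820600, in control 1 and mutant 2. The bins of the main domain had 4 gaps in either control, of 1.0 kb in total in control 1 and 2.2 kb in control 2. They had 0 gaps in mutant 1 and 1 gap of 0.8 kb in mutant 2. Bins at the highest score made up 90.1% and 93.7% for the controls, and 100% and 98.7% for the mutants. The smaller region to the left was called by MACS2 in all 4 libraries but held bins in the mutants alone, over 1.0 and 0.6 kb (chromosome 2 from 9774401 to 9775400). It was the hiddenDomains region called in both mutants and neither control.

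Gata4, which acts in heart, endoderm and gonadal somatic cells, was the locus at which both mutants were covered less than both controls by either caller. Bins spanned 28.4 kb in either control, 27.4 kb in mutant 1 and 25.8 kb in mutant 2, a difference of -1.80 kb (exact permutation p = 0.333) that was -1.0 kb without mutant 2 and -2.6 kb without mutant 1. Peaks spanned 29.9 and 31.1 kb for the controls against 28.3 and 28.7 kb for the mutants, a difference of -2.01 kb (exact permutation p = 0.333). When bins were scaled to equal genome-wide totals their difference turned to 1.56 kb, so the direction by bins rests on the unscaled lengths. The right edge of the main domain lay farther in: bins ended at 63876800 in either control and at 63876200 and 63876400 in the mutants. Peaks there ended at 63876740 and 63876952 for the controls and at 63876201 and 63876543 for the mutants. The bins of each library also left 1 gap near 63872000, of 0.2 kb in control 1, 0.4 kb in control 2, 0.8 kb in mutant 1 and 1.0 kb in mutant 2. The peaks ran through it in every library. In the region to the right of the main domain, peaks spanned 8.48 and 9.30 kb for the controls against 7.23 and 7.98 kb for the mutants. Bins there did not separate the genotypes, at 7 and 7.2 kb for the controls against 7 and 6.6 kb for the mutants. A region of 0.737 kb at the far right (chromosome 14 from 63899528 to 63900264) was the MACS2 region called in both mutants and neither control, and bins marked it in mutant 1 alone.

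Gata5, a factor of heart and gut development, was the locus whose calls varied most between libraries. Bins spanned 9.8 kb in control 1, 8.6 kb in control 2, 10.4 kb in mutant 1 and 9.8 kb in mutant 2, a difference of 0.9 kb with overlapping groups (exact permutation p = 0.667). Peaks spanned 11.8 and 9.48 kb for the controls against 15.1 and 12.3 kb for the mutants, a difference of 3.07 kb (exact permutation p = 0.333) that was 1.66 kb without mutant 1 and 1.92 kb without control 2. The mutants were above the controls in peaks, and mutant 1 was highest in both kinds of list. The main block began farther to the right in the bins of both mutants, at 180066801 and 180066401 against 180065601 and 180066001 for the controls. By peaks its left edge did not separate the genotypes, as mutant 2 began at 180064994, farther out than both controls.

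The main Gata5 block was interrupted in the controls at a place where it was continuous in the mutants. The peaks of control 1 had a gap of 1.199 kb there (chromosome 2 from 180072968 to 180074166) and those of control 2 a gap of 1.58 kb (from 180072713 to 180074291), whereas both mutants had a peak across the site. The widest single peak measured 7.74 and 7.63 kb for the controls and 9.69 and 9.84 kb for the mutants. Bins gave the same picture, with a gap of 1.4 kb in control 1 (from 180072801 to 180074200) and of 1.6 kb in control 2 (from 180072601), and no gap at that site in either mutant. It was the longest stretch at any of the 6 loci that both mutants and neither control called, by either caller, and it was singled out after its values were seen. Of the base pairs with a peak at Gata5, 42.0% had one in all 4 libraries, against at least 79.8% at each of the other 5 loci.

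Gata6, a close relative of Gata4, was called over nearly the same bases in every library. Bins spanned 13.4 kb in control 1, 13.8 kb in control 2, 13.2 kb in mutant 1 and 13.4 kb in mutant 2 (exact permutation p = 0.667). Peaks spanned 13.5 and 13.8 kb for the controls against 13.3 and 13.5 kb for the mutants (exact permutation p = 0.667). The groups overlapped in both, with differences of the means of -0.3 and -0.23 kb. Scaling of the bins to equal totals turned the former to 1.38 kb. The left edge by bins was at 11046601 in either control and at 11047001 in either mutant, a shift inward of 2 bins. By peaks it was at 11046800 and 11046617 for the controls and at 11046985 and 11046822 for the mutants, and the gap between control 1 and mutant 2 was smaller than that between the controls. Of the base pairs with a peak, 96.3% had one in all 4 libraries, the highest share among the 6 loci.

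Hand2 showed no difference of the means in bins and a longer covered length in the peaks of mutant 1. Bins spanned 36.6 kb in control 1, 40 kb in control 2, 38.4 kb in mutant 1 and 38.2 kb in mutant 2 (exact permutation p = 1), both mutants lying between the controls. Peaks spanned 40.9 and 42.3 kb for the controls against 47.6 and 42.6 kb for the mutants, a difference of 3.53 kb (exact permutation p = 0.333) that was 1.06 kb without mutant 1 and 6.00 kb without mutant 2. Mutant 2 exceeded control 2 by less than the controls differed from each other. The left edge by peaks lay at 59789650 and 59789672 for the controls and at 59788909 and 59789026 for the mutants, 0.69 kb farther out on average. Bins began at 59789801 in both control 1 and mutant 1. A stretch of 0.6 kb from 59823401 to 59824000 held bins in both controls and neither mutant, and all 4 libraries had peaks there.

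The outer edges of the main domain were then compared across all loci. With peaks, both mutants lay farther out than both controls at 4 of 12 edges (both edges of Gata3, the right edge of Gata2 and the left edge of Hand2) and farther in at 3. The left edge of Gata3 counts as outward by 3 bp between control 1 (9789304) and mutant 1 (9789301), and by bins it lay farther in on average, at -0.5 kb. Among the inward edges, the right edge of Gata5 separated the genotypes by 5 bp and the left edge of Gata6 by 22 bp. Among 816 edges of other wide regions, 29.8% lay farther out and 15.3% farther in. With bins, 1 of 12 edges lay farther out and 3 farther in, against 18.2% and 13.7% of 808 edges. Both callers gave the same direction at the right edges of Gata2 (outward) and Gata4 (inward) and at the left edge of Gata6 (inward). These 3 edges were picked out after their values were seen. The largest mean shift was 1.71 kb with peaks and 0.90 kb, or a few bins, with hiddenDomains.

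**Figure D3:**
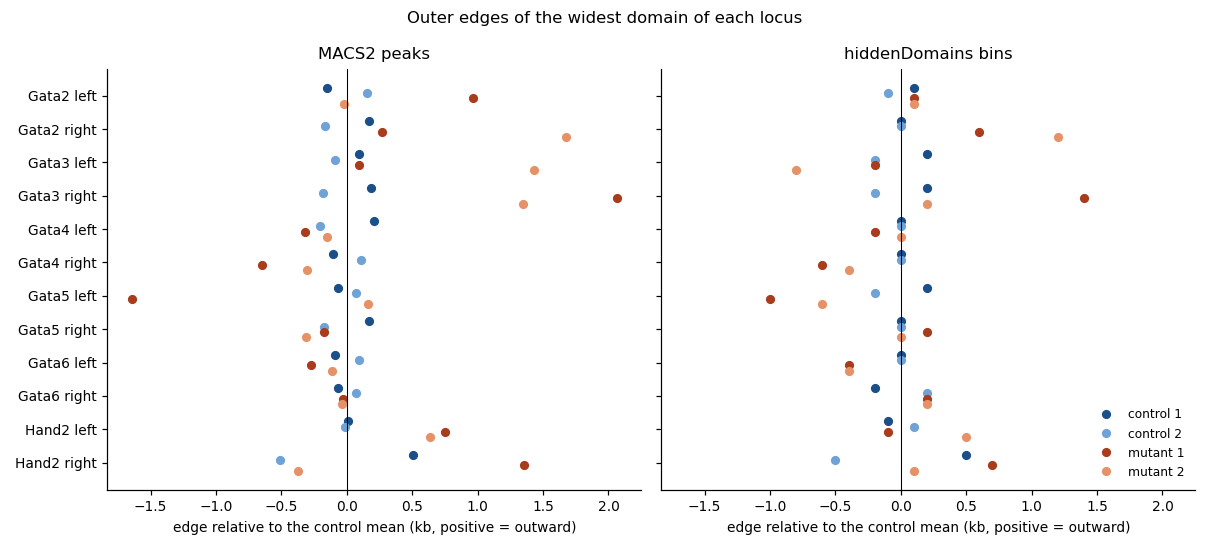
Position of the left and right outer edge of the widest domain of each locus in every library, in kb relative to the mean of the controls (positive is outward), for MACS2 peaks and hiddenDomains bins. The 2 mutants lie to the right of both controls at the right edge of Gata2 and to the left of both at the right edge of Gata4 in both panels.

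Coverage by bins was tested in windows of 10 kb along the genome with limma on log2(kb covered + 1), a scale that understates changes in sparsely covered windows. Of 21169 windows tested, 0.638% were higher and 5.23% lower in the mutants at a Benjamini-Hochberg adjusted p under 0.05. A window was assigned to a locus by its midpoint, which leaves out the one that holds the right edge of Gata3. Of 36 windows at the 6 loci, 20 had the minimum mean coverage of 0.5 kb and were tested. Of these, 0 were higher and 1 was lower. At an unadjusted limma p under 0.05, 1 was higher and 2 were lower, against 3.81% and 21.4% of all windows. Both mutants were above both controls in 4 of the 20 windows and below both in 5, against 8.46% and 39.4% of all windows. The median log2 difference was 0.00 over the 20 windows and -0.12 over all windows. The sets differ in coverage, as 20% of the 20 windows but 0.482% of all were fully covered in every library. A window fully covered in every library has no difference, so these shares and medians are not compared like for like.

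Scaling every library to the same total moved the median of all windows to 0.00, a shift of 0.12. The median of the 20 windows became 0.16, which is the value that scaling alone gives to a window fully covered in every library. At an adjusted limma p under 0.05, 0.902% of all windows were then higher and 2.46% lower, and 0 of the 20 windows passed. At an unadjusted limma p under 0.05, 4 of the 20 were higher and 0 lower, against 7.33% and 13.2% of all windows. Of the 20 windows, 4 were fully covered in all libraries (1 each at Gata2, Gata3, Gata4 and Hand2), and a rise in coverage cannot be measured there. Over the genome 0.482% of windows were fully covered.

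The window called lower lay at the right end of the main Gata4 domain (chromosome 14 from 63870001 to 63880000). Bins spanned 6.6 and 6.4 kb of it for the controls against 5.4 kb for either mutant. Its log2 difference was -0.23 (SE 0.02, limma adjusted p = 0.0446). The call was lost with MACS2 peaks, which spanned 6.74 and 6.95 kb for the controls against 6.20 and 6.54 kb for the mutants (limma adjusted p = 0.332). It was also lost with scaling of the bins, where the log2 difference was -0.08 (limma adjusted p = 0.653). With peaks scaled to equal totals the difference was -0.16 (limma adjusted p = 0.652). With bins of the highest score only the difference was -0.20 and the call was lost (limma adjusted p = 0.216). With windows shifted by 5 kb, neither Gata4 window that covers this place passed (limma adjusted p = 0.123 and 0.438), and the single window called at the loci was one of Gata6, with bins over 8.4 kb in either control and 8 kb in either mutant (limma adjusted p = 0.0411). Without mutant 1 or mutant 2 the Gata4 difference stayed at -0.23 and the call was lost (limma adjusted p = 0.143 in either case). Without control 1 or control 2 the adjusted p was 0.0301 and 0.0272, but the spread then comes from the mutants alone, whose values in this window are identical, so these fits do not bear on the call.

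No other window among the 20 assigned to the 6 loci passed. At the left edge of Gata6 (chromosome 18 from 11040001 to 11050000), bins spanned 3.4 kb in either control and 3 kb in either mutant. The log2 difference was -0.14 (SE 0.01, limma adjusted p = 0.0577). In the right part of Gata5 (chromosome 2 from 180070001 to 180080000), which holds the gap of the controls, bins spanned 5.4 and 4.6 kb for the controls against 7 and 6.2 kb for the mutants. This was the largest positive difference among the 20 windows, at 0.34 (SE 0.11, limma adjusted p = 0.196). At the right end of Gata2 (chromosome 6 from 88150001 to 88160000), 6 and 6.2 kb for the controls compared with 6.8 and 7.2 kb for the mutants, a difference of 0.17 on the log2 scale (SE 0.04, limma adjusted p = 0.123).

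**Figure D4:**
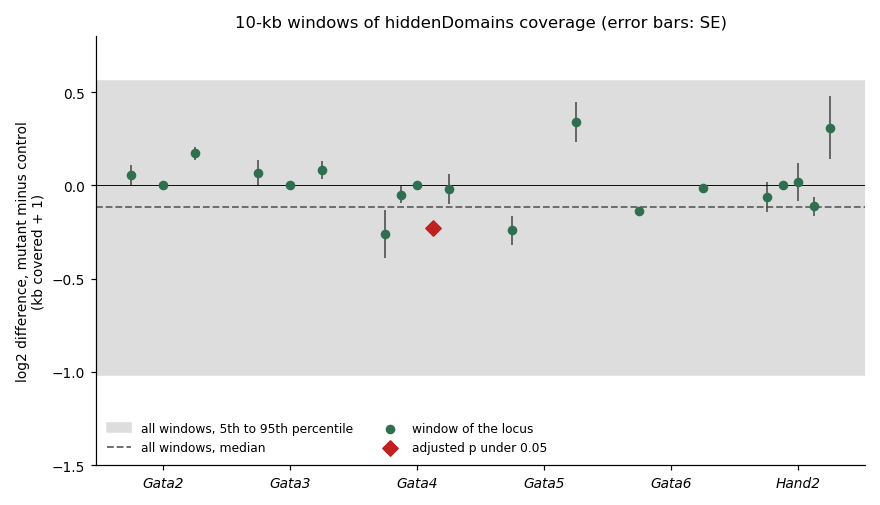
Log2 difference (mutant minus control) of covered length in the 10-kb windows of each locus, in order along the chromosome, with SE as error bars; the grey band spans the 5th to 95th percentile of all windows and the dashed line is their median. All 20 windows lie inside the band, and the single window with an adjusted p under 0.05 is at Gata4, at -0.23.

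The called base pairs were then split by the libraries that called them. Base pairs called in both mutants and neither control made up 3.05% of the called base pairs of the 6 loci by MACS2 and 2.12% by hiddenDomains. The shares were 4.94% and 2.24% over the genome, and 3.60% and 1.84% in other wide regions. Base pairs called in both controls and neither mutant made up 0.329% and 1.72%, against 5.18% and 8.50% over the genome. In other wide regions they made up 0.745% and 1.68%. Those regions were again counted without the small regions beside them, unlike the loci. At Gata5 the mutant-only share was 8.69% by MACS2 and 11.7% by hiddenDomains, the highest among the 6 loci by both callers. Gata4 and Gata6 had no base pair with bins in both mutants and neither control.

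**Figure D5:**
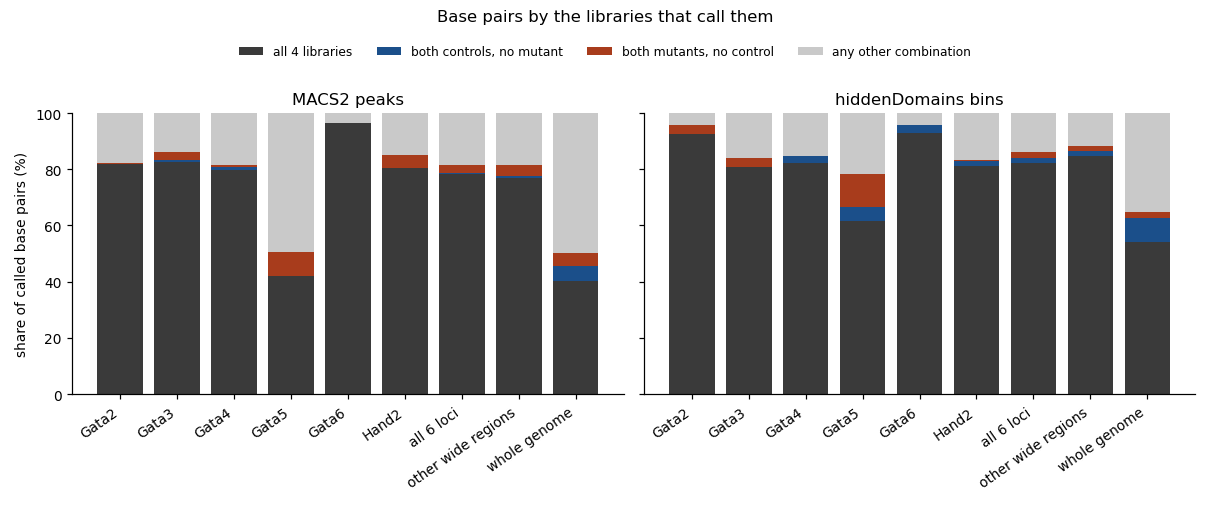
Share of called base pairs (%) by the libraries that called them, for each locus, the 6 loci together, other regions at least as wide as the narrowest domain, and the whole genome; each bar adds to all called base pairs. Gata5 has the smallest share called in all 4 libraries, 42.0% by MACS2 and 61.7% by hiddenDomains, and Gata6 the largest, 96.3% and 92.8%.

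Overlap between libraries at the loci was measured as the base pairs shared by a pair of libraries over those covered by either, the Jaccard index. Over the 6 loci it was 0.908 between the controls, 0.869 between the mutants and 0.844 to 0.894 between genotypes with MACS2. With hiddenDomains it was 0.912 between the controls, 0.92 between the mutants and 0.881 to 0.898. At Hand2 the bins of a control and a mutant shared 0.879 to 0.894 of their joint length. The bins of the controls shared 0.877 and those of the mutants 0.905. Libraries of different genotype thus overlapped as much as the controls did, and less than the mutants did. At Gata5 the bins of the controls shared 0.878 and those of the mutants 0.870, whereas a control and a mutant shared between 0.667 and 0.75. Peaks at Gata5 did not group the libraries by genotype: the controls shared 0.763 and the mutants 0.576. By peaks mutant 2 shared 0.748 and 0.749 with the controls, and mutant 1 shared 0.537 and 0.462 with them. At the other 5 loci the lowest overlap of bins between genotypes was 0.855 or higher. Lower overlap between genotypes than within them was not particular to Gata5. Bins of the whole genome shared 0.8002 between the controls, 0.7305 between the mutants and 0.6596 to 0.6951 between genotypes. In other wide regions these values were 0.936, 0.923 and 0.901 to 0.907. Between 94.0% and 100% of the bin-covered length of a locus lay inside a peak of the same library. Over the whole genome this share was 95.9% to 96.9%. Among the 6 loci the reverse share was lowest at Gata5 in mutant 1, where bins covered 67.5% of the length of the peaks. Over the whole genome the bins of mutant 1 covered 60.1% of its peaks.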

How the data were processed

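H3K27me3 ChIP-seq calls of 4 libraries were used. The deposited lists hold, per the file headers and names, MACS2 peaks (positions only) and hiddenDomains bins of 200 bp with a display score, with no stated meaning. Positions are in mm9, and the submitters' processing notes name Bowtie, SAMtools and bedtools. Sources used here do not state versions, thresholds, control tracks or depth. A deeper library can yield more and wider calls, and lengths are not normalised for depth.

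Calls were clipped to the intervals, merged where they touch, and counted in base pairs, 1-based. Groups came from the sample titles. Covered length per locus was compared by exact permutation tests (scipy 1.17.1). Coverage in 10-kb windows was tested with limma 3.58.1 (R 4.3.3, trend, pseudocount 1 kb, mean of at least 0.5 kb, Benjamini-Hochberg). Windows without spread within either genotype had their variance offset from zero by limma. The interval and limma steps were tested on simulated data. The values simulated for limma were normal with a common spread, without the ties and the 10-kb ceiling of real windows. They do not bear on calls in windows without spread within a genotype. A region was called in a library where a peak covered at least 1 bp. Alternatives changed the caller, score minimum, scaling, window size and phase, pseudocount, coverage minimum, interval limits, merging, overlap, the replicate block and each library left out. Named were the 6 genes, the widest region of each and the regions specific to a genotype; short stretches and edges were chosen after their values were seen. The members and lists were chosen with earlier results of these data known. Lists of partner genes and of cell type markers were not examined, as no mm9 annotation was used.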

Additional observations from a re-analysis of the deposited data

How the results depend on the processing

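The difference in bin-covered length over the 6 loci kept its sign under every alternative run except the omission of mutant 1. It was 2.10 kb, and 7.59 kb with MACS2 peaks, 19.1 kb with scaled totals and -0.3 to 4.5 kb when 1 library was left out. Scaling raises the mutants relative to the controls, whose bin totals were larger. The cause of the difference between the genotypes was not tested. Among single loci, Gata2, Gata3 and Gata5 stayed positive in all 9 alternatives, from 0.8 to 3.27 kb, 0.8 to 6.00 kb and 0.3 to 3.07 kb. Gata4 and Gata6 stayed negative in 8 of 9 and became 1.56 and 1.38 kb with scaling. Hand2, at 0 kb, ranged from -1.7 to 4.77 kb. Windows called at the 6 loci (limma, adjusted p under 0.05) numbered 1. They numbered 0 with MACS2 peaks, the highest score only, scaling, 100-kb windows and MACS2 peaks scaled (added after seeing the data). The highest score only called 99 higher and 1038 lower of 19839 windows over the genome. A pseudocount of 0.2 kb called 2 of the 20 windows of the loci, both lower, against 195 higher and 1434 lower of 21169 over the genome. At an unadjusted limma p under 0.05, MACS2 peaks gave 3 higher and 0 lower of 25 windows of the loci (2938 and 3089 of 29560 in all), MACS2 peaks scaled 1 and 0 of 25 (3000 and 2946 of 29560), the highest score only 3 and 2 of 20 (633 and 4318 of 19839), and 100-kb windows 1 and 1 of 9 (259 and 2969 of 10450). Windows shifted by 5 kb gave 1 of 21, at Gata6 and not at Gata4, against 136 higher and 1123 lower of 21164 over the genome. Leaving out 1 library gave 1 to 3 windows, the highest without control 1, and without mutant 1 or mutant 2 the single window was that of Gata6. In those fits 1 genotype has a lone library, assumed to vary like the other genotype, and bins of the Gata6 window have no spread within a genotype, so they say nothing of how stable a call is. Over the genome 1243 windows were called, and 712 with scaling, 564 with 100-kb windows, 0 with MACS2 peaks (lowest adjusted p 0.124) and 0 with MACS2 peaks scaled (lowest adjusted p 0.0935). Leaving out 1 library gave 2209 to 3424, more than with all libraries. Of the calls 135 were higher and 1108 lower, and with scaling 191 and 521. Regions called in all 4 libraries at the 6 loci numbered 10, and 8 to 12 under the alternatives.

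The labels number the libraries 1 and 2 in both genotypes without saying that a number marks a shared animal or day. The difference between the controls correlated with that between the mutants at r = 0.043 over 21169 windows, and with 2 pairs the numbers were not taken to pair the libraries. With the replicate block, which leaves fewer residual degrees of freedom, limma called 0 windows in all (lowest adjusted p 0.177) and 0 at the 6 loci. At an unadjusted limma p under 0.05 the block gave 688 higher and 3791 lower of 21169 windows, and 2 higher and 2 lower of the 20 at the loci.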
